A study of Mus musculus with 44 samples.

Results

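The strains described here were selected on the measured level of 1 gene, Hars, in sorted blood stem and progenitor cells of mice. Of 22 BXD strains, 20 were compared, and 9 of them had low Hars while 11 had high Hars. Strains were chosen by the mean log2 intensity of the single Hars probe set over the 2 arrays of a strain, with intensities under 16 set to 16. A mean under 6.5 put a strain among the low-Hars strains, and a higher mean put it among the high-Hars strains. The low-Hars strains were BXD28, BXD5, BXD14, BXD16, BXD21, BXD19, BXD31, BXD38 and BXD8, and the high-Hars strains were BXD9, BXD34, BXD18, BXD32, BXD12, BXD39, BXD11, BXD1, BXD33, BXD6 and BXD2.

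BXD strains were inbred from crosses of C57BL/6 and DBA/2 mice. The sampling was described alike for both groups. The animals were females aged 3 to 6 months per the labels, and bone marrow of 3 mice was pooled for each sample. Red cells were lysed, and cells that were Lin-Sca-1+ c-kit+ were sorted by flow cytometry. Age and cell number are given only as ranges over all samples, so the groups could not be compared on them. Lineage-negative cells were the 5% with the least lineage stain, for antibodies to CD3e, B220, Mac-1, TER119 and Gr-1, so the gate was relative and its strictness followed the sample. RNA was measured on Affymetrix MG_U74Av2 arrays, where a probe set is a group of short oligonucleotides made for 1 transcript.

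Hars encodes cytosolic histidyl-tRNA synthetase, the enzyme that joins histidine to its transfer RNA so that the amino acid can enter growing proteins. A recombinant inbred strain is homozygous for a mosaic of the parental genomes, and genes close together on a chromosome are mostly inherited from the same parent within a strain. In array intensities of such strains, an allele's transcript level and a sequence difference under the probes cannot be told apart. The files used here give no genotypes, so which parent contributed Hars to either group is not stated here.

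The 40 arrays compared were 18 of low-Hars strains and 22 of high-Hars strains. The labels carry 2 array codes, called series A and series B here, and no strain had arrays in both. The low-Hars strains comprised 3 of series A and 6 of series B, and the high-Hars strains 5 of series A and 6 of series B. The deposited values were intensities that the authors had scaled, with a trimmed mean near 200.1 on every array, and array medians ran from 6.55 to 6.83 on the log2 scale. The 2 arrays of a strain were averaged, so the number of strains, 9 low-Hars and 11 high-Hars, limits the precision. P-values measure the spread between strain means within the groups. That spread may be partly technical, and the labels do not name the pool behind each array.

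BXD40 and BXD42, both of series A, were left out. The 2 arrays of each disagreed on genes that vary between strains. H2-Ea, a class II antigen-presenting gene, read 4, the floor, and 7.57 on the pair of arrays from BXD40. For BXD42 it read 8.69 and 4.41. In the 20 strains compared, the 2 arrays of a strain differed on H2-Ea by 0.42 at the median and by at most 1.20. Hars itself was low on all of the arrays left out, at 4.30 and 4.34 for BXD40 and at the floor and 5.27 for BXD42.

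Hars fell into separate levels. On the log2 scale of the deposited intensities, the low-Hars strains had a lowest strain mean of 4.08 in BXD28, a median of 4.40 and a highest of 5.34 in BXD8. The high-Hars strains had a lowest strain mean of 7.08 in BXD9, a median of 8.26 and a highest of 8.88 in BXD2. BXD8 and BXD9 were therefore the strains nearest to the threshold on either side, with no strain mean in the 1.74 log2 units between them. The groups averaged 4.55 ± 0.37 in low-Hars strains (SD, n = 9) and 8.31 ± 0.50 in high-Hars strains (SD, n = 11), which is at least 13.5-fold higher in the high-Hars strains because 3 low-Hars arrays were at the floor. These values made the groups and were not tested.

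**Figure D1:**
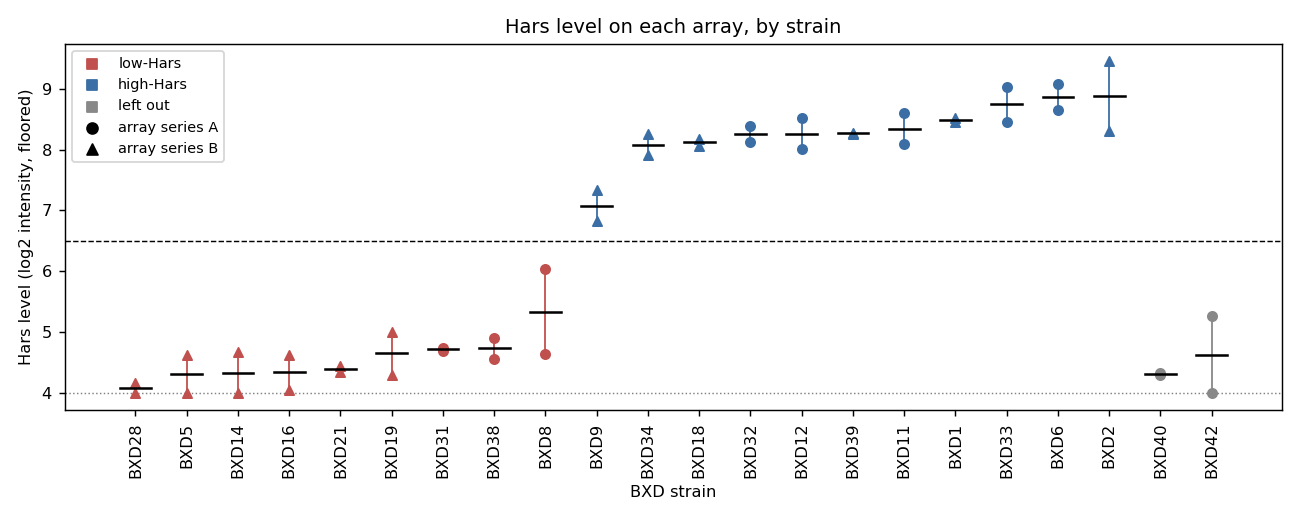
Hars level on each array (log2 of the deposited intensity, with intensities under 16 set to 16) against strain. Low-Hars strains are red, high-Hars strains blue and the strains left out grey, drawn in that order and sorted by strain mean within each. Bars mark strain means, the dashed line is the threshold of 6.5 and the dotted line the floor of 4; low-Hars means ran up to 5.34 and high-Hars means started at 7.08.

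Single arrays followed the same order. Low-Hars arrays ran from the floor to 6.04 and high-Hars arrays from 6.82 to 9.46, so the arrays did not overlap either. BXD8 had the least even pair among the low-Hars strains, with arrays at 6.04 and 4.64. Quantile normalization, used for the main comparisons of genes below but not for the RNA quality measure, left all 20 strains in their groups. Hars2, the neighbouring gene for the mitochondrial enzyme, had no probe set of its own among those named here.

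The question put to the data was whether other genes, and the neighbours of Hars on chromosome 18 in particular, followed the Hars groups. Strain means of 7452 other probe sets were compared with limma, with array series as a covariate, and each difference is given as low-Hars minus high-Hars strains in log2 units with its 95% interval. No probe set passed an adjusted p of 0.05, which is 0 of 7452 (0%), and the smallest adjusted p was 0.358. At an unadjusted p under 0.05 there were 563 probe sets (7.56%), of which 297 were higher and 266 lower in low-Hars strains. An ordinary linear model without moderation and limma with an intensity trend also called 0 probe sets, with smallest adjusted p-values of 0.387 and 0.283. No probe set had strain means that kept the groups apart once centred on the series (0%). The half-width of the 95% interval was 0.24 at the median probe set and 0.42 at the 90th percentile. An adjusted p over 0.05 does not show that the groups were alike, and the intervals below give the sizes that the data allow.

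Counted by gene, with the brightest tested probe set standing for each, 431 of 5623 genes (7.66%) had an unadjusted p under 0.05. Of all genes, 4.23% were in that class and higher in low-Hars strains, and 3.43% were in it and lower. These shares are the background for each count of genes below. The median difference over all tested genes was 0.01.

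Around Hars, the RefSeq gene order of GRCm38.p6 was used for ranks, without coordinates, since the files name no genome build. The stretch that holds the 5 nearest tested genes on each side contained 85 other protein-coding genes. Of these, 59 were protocadherins, which encode cell adhesion molecules. In all, 13 of the 85 had a probe set and 10 were bright enough to be tested. Chromosome 18 held 66 tested genes before Hars and 75 after it.

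None of the 10 nearest genes passed the test. Their 95% intervals all lay between -0.56 and 0.46. Hars itself differed by -3.76 on the deposited scale without series adjustment, but it made the groups, so its size was set by the selection. At an unadjusted p under 0.05 there were 4 of 10, with Ndufa2 higher and Sra1, Cd14 and Gnpda1 lower in low-Hars strains, beside a background of 7.66%. The 10 are few, share a chromosome segment within strains and were picked with earlier results known, so this count is a description.

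The immediate neighbours on the array showed intervals that spanned 0. Wdr55, a WD-repeat protein gene with 1 coding gene between it and Hars, ran from 7.14 through a median of 7.50 to 7.72 in low-Hars strains, and from 6.79 through 7.37 to 7.75 in high-Hars strains. The groups overlapped almost wholly, and the difference was 0.08 (-0.14 to 0.30, unadjusted p = 0.443). On the other side, Diaph1, which encodes a formin that builds actin filaments, ran from 10.71 through 11.00 to 11.27 in low-Hars strains and from 10.77 through 10.99 to 11.15 in high-Hars strains. Its difference was 0.04 (-0.12 to 0.20, unadjusted p = 0.630), with 64 coding genes, mostly protocadherins, between it and Hars. This Diaph1 probe set carries the maker's mark for probes that may be shared by similar sequences. Dimmer Diaph1 probe sets differed by -0.17 (-0.41 to 0.06) and 0.06 (-0.12 to 0.23).

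Ndufa2, an accessory subunit of respiratory complex I and the third tested gene before Hars, had the smallest p of the 10. It ran from 9.00 through a median of 9.23 to 9.55 in low-Hars strains, and from 8.59 through 9.08 to 9.34 in high-Hars strains. The groups overlapped, with 6 of 9 low-Hars strains above the median of the high-Hars strains. The difference was 0.27 (0.09 to 0.46, unadjusted p = 0.00627, adjusted p = 0.609), and it was 0.31 in series A and 0.25 in series B.

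Cd14, the fourth gene before Hars, encodes a co-receptor for bacterial lipopolysaccharide. Its strain means ran from 8.42 through 8.80 to 9.11 in low-Hars strains and from 8.68 through 8.95 to 9.20 in high-Hars strains, and 8 of 9 low-Hars strains lay below the high-Hars median. The difference was -0.20 (-0.36 to -0.03, adjusted p = 0.647). Cd14 is also a monocyte gene. Of 8 tested neutrophil and monocyte markers, 4 genes of mature neutrophils were lower in low-Hars strains at an unadjusted p under 0.05. This compares with 3.43% of all genes, and 0 passed the adjusted threshold, as described below. Another 3 of the 8 were higher, among them Csf1r at 0.16 (-0.10 to 0.41) and, by a dimmer probe set, at 0.08. The part of these cells in the Cd14 value was not tested.

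Sra1, the fifth gene before Hars, encodes a steroid receptor co-activator RNA and protein. It ran from 6.66 through 6.86 to 7.23 in low-Hars strains and from 6.86 through 7.10 to 7.35 in high-Hars strains, a difference of -0.19 (-0.34 to -0.03, adjusted p = 0.647). Low-Hars strains lay below the high-Hars median in 7 of 9 cases. The difference was -0.06 in series A and -0.27 in series B.

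Gnpda1, the fourth gene after Hars, encodes glucosamine-6-phosphate deaminase. Its levels ran from 6.59 through 6.87 to 7.49 in low-Hars strains and from 7.04 through 7.24 to 7.76 in high-Hars strains, a difference of -0.24 (-0.46 to -0.02, adjusted p = 0.647). Strains of series A differed by -0.02 and strains of series B by -0.38. The change between series was not called (unadjusted p = 0.103 for the interaction term in limma).

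The other members of the stretch had intervals that held 0. They were Ik, a spliceosome component, at -0.02 (-0.21 to 0.16), Arap3, a GTPase-activating protein, at -0.13 (-0.56 to 0.30), Rnf14, a ubiquitin ligase, at -0.09 (-0.28 to 0.11), and Ndfip1, an adaptor of ubiquitin ligases, at 0.11 (-0.10 to 0.32). The sign of Arap3 rested on BXD8, without which it differed by 0.02, and it differed by -0.54 among strains of series A and by 0.12 among those of series B. Genes of the stretch that fell under the brightness filter were set aside from the counts. Among them Slc35a4, named after its value was seen, differed by 0.50 (0.10 to 0.91, unadjusted p = 0.0181) in the fit without the filter, and its adjusted p there was 0.715. Hdac3, a histone deacetylase, differed by -0.01 (-0.39 to 0.37) and the protocadherin Pcdh12 by -0.04 (-0.24 to 0.17). A dimmer Arap3 probe set, also under the filter, differed by 0.21 (-0.17 to 0.59).

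**Figure D2:**
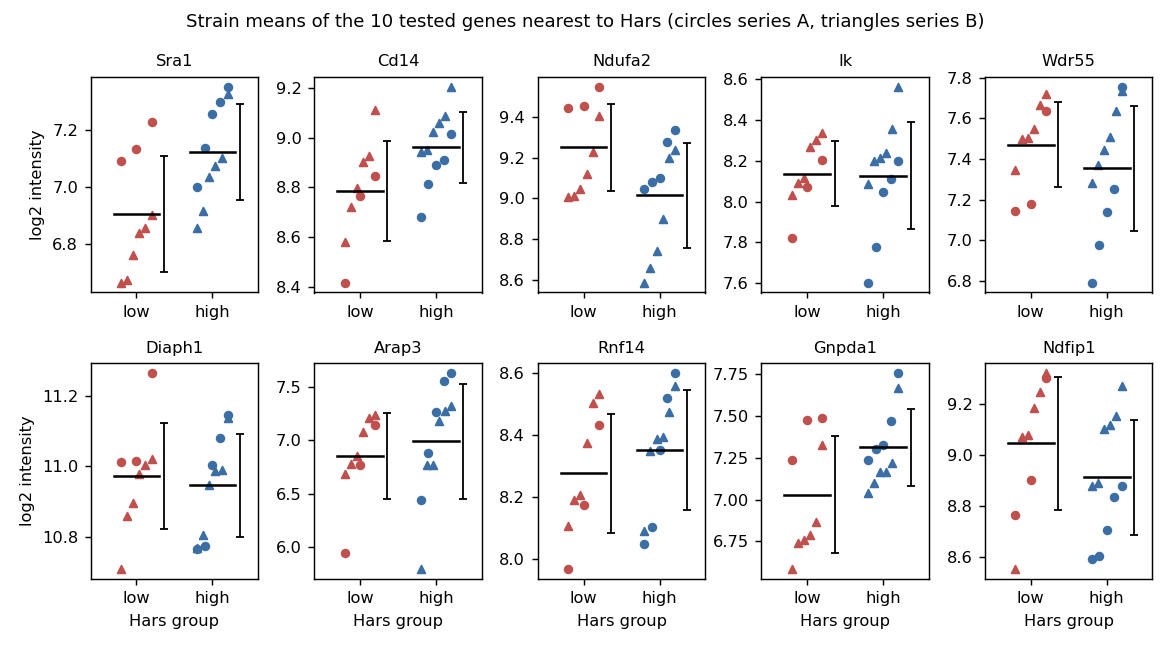
Strain means (log2 intensity after quantile normalization) of the 10 tested genes nearest to Hars, in chromosomal order from Sra1 to Ndfip1, with low-Hars strains left in red and high-Hars strains right in blue; circles are series A, triangles series B, lines are means and error bars SD. The groups overlapped in every panel, and the y axes differ between panels and do not start at 0.

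With distance from Hars the share of genes at an unadjusted p under 0.05 was 4 of 10 for the 5 nearest on each side, 2 of 10 for the 6th to 10th, 2 of 20 beyond the 10th to the 20th and 6 of 101 farther out. Over the whole chromosome it was 14 of 141 genes (9.93%), 9 higher and 5 lower in low-Hars strains, beside the background of 7.66%. Chromosomes 19, 15 and 3 had larger shares. The median absolute difference was 0.12 for the 10 nearest genes and 0.09 for all tested genes.

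Those of the 14 that lay within 20 tested genes of Hars but outside the 10 nearest differed in both directions. Pura, a nucleic-acid-binding protein gene, ran from 7.39 through 8.76 to 9.38 in low-Hars strains and from 8.72 through 9.12 to 9.99 in high-Hars strains, a difference of -0.55 (-0.96 to -0.13). Pabpc2, a poly(A)-binding protein gene, differed by 0.23, the mitotic phosphatase gene Cdc25c by 0.22 and the neuropeptide Y receptor gene Npy6r by 0.25. None of them passed, with adjusted p-values of 0.640 or above.

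**Figure D3:**
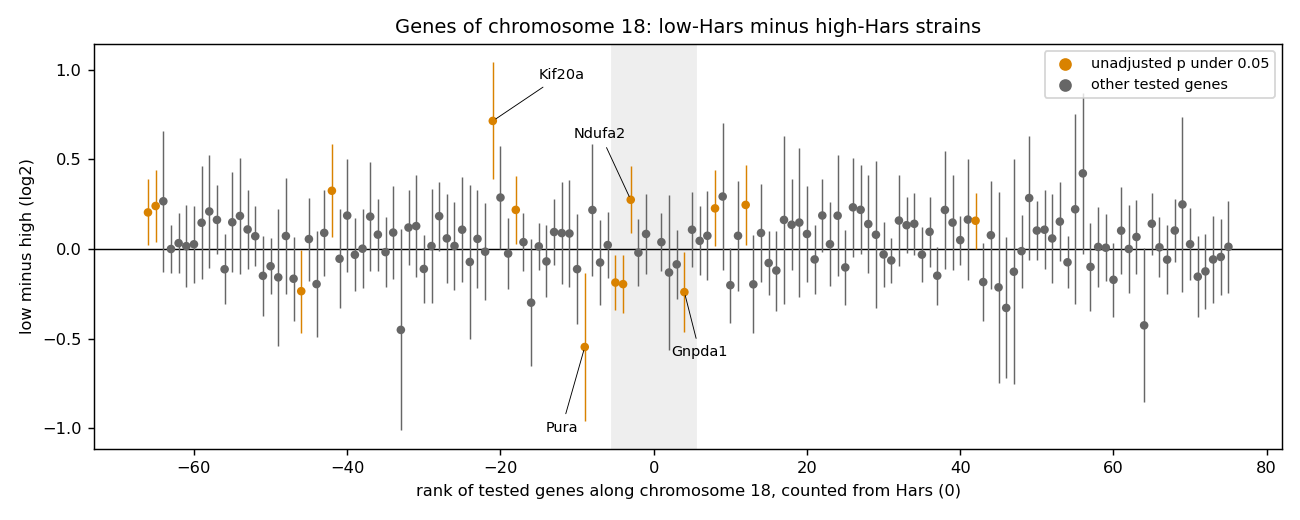
Difference between low-Hars and high-Hars strains (log2, low minus high) with 95% interval for the 141 tested genes of chromosome 18, against their rank from Hars, which sits at 0 and is not drawn; grey shading marks the 10 nearest and orange an unadjusted p under 0.05. The nearest 10 lie between -0.24 and 0.27, and Kif20a has the largest value, 0.71.

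Kif20a was the chromosome 18 gene with the smallest p, and it was picked out after its values were seen. It encodes a kinesin motor needed late in cell division, and it lay 21 tested genes before Hars. Its strain means ran from 8.38 through 8.52 to 8.81 in low-Hars strains and from 7.26 through 7.88 to 8.83 in high-Hars strains. All 9 low-Hars strains lay above the high-Hars median, and BXD18 was the only high-Hars strain above the lowest of them and the highest of all 20. The difference was 0.71 (0.39 to 1.04, unadjusted p = 0.000175), and the adjusted p was 0.609. With BXD18 left out the difference was 0.83 and the adjusted p was 0.0175, so this strain decided the call. Over the 76 alternatives the adjusted p ran from 0.0175 to 0.998. Its probe set carries the maker's mark for probes that may be shared by similar sequences, and no other Kif20a probe set was tested.

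Arhgef25, on chromosome 10, had the smallest p of all probe sets and was likewise picked after its value was seen. It encodes a guanine nucleotide exchange factor. Strain means ran from 6.97 through 7.29 to 7.85 in low-Hars strains and from 7.41 through 8.11 to 8.86 in high-Hars strains, with all 9 low-Hars strains below the high-Hars median. The lowest high-Hars strain was again BXD18. The difference was -0.74 (-1.04 to -0.44, unadjusted p = 4.80e-05, adjusted p = 0.358), and the adjusted p was 0.0477 without BXD18 replicate 2, with a range of 0.0477 to 0.998 over the 76 alternatives.

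The largest difference by size came from Pdxdc1, a pyridoxal-dependent decarboxylase domain gene on chromosome 16, named after its value was seen. It was -1.74 (-3.37 to -0.10, adjusted p = 0.647). The level took 2 separate values over strains. In low-Hars strains 6 lay from 4.82 to 5.46 and 3 from 8.98 to 9.33, while in high-Hars strains 3 lay from 5.16 to 5.75 and 8 from 8.82 to 9.35. Both levels thus occurred in both groups, in unequal numbers.

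Genes that share the work of Hars were examined as lists. Aminoacyl-tRNA synthetases each load 1 kind of amino acid, or in one case 2, onto transfer RNA, and several sit in a common complex with scaffold proteins. Of 18 tested cytosolic synthetases and scaffold proteins, 0 passed limma's adjusted test and 0 had an unadjusted p under 0.05, beside the background of 7.66%, and none passed in the ordinary linear model. Their differences ran from -0.20 to 0.24 with a median of -0.04, of which 6 were above and 12 below 0. The highest was Eprs, the glutamyl-prolyl enzyme, at 0.24 (-0.03 to 0.51).

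Lars, the leucyl enzyme, had the smallest p of the list and lies on chromosome 18 as the 10th tested gene after Hars. Its levels ran from 8.09 through 8.36 to 8.50 in low-Hars strains and from 7.95 through 8.63 to 8.88 in high-Hars strains. All low-Hars values lay within the range of the high-Hars strains, and the difference was -0.20 (-0.41 to 0.01, adjusted p = 0.652). Of 5 tested mitochondrial synthetases none had an unadjusted p under 0.05, with a median difference of -0.07, and the smallest p was that of Sars2, the seryl enzyme, at 0.14 (-0.03 to 0.30).

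Uncharged transfer RNA is sensed by the kinase Gcn2, encoded by Eif2ak4, which slows translation and raises the factor Atf4 and its targets. Eif2ak4 differed by -0.0047 (-0.29 to 0.28), Atf4 by -0.11 (-0.35 to 0.13) and the Atf4 target Asns, asparagine synthetase, by 0.09 (-0.16 to 0.34). Of 21 tested genes of this response, 0 passed, and the median difference was -0.05. Ppp1r15a, which restores translation by recruiting a phosphatase to eIF2, was the 1 member with an unadjusted p under 0.05, beside 7.66% of all genes. It ran from 6.31 through 8.09 to 9.29 in low-Hars strains and from 7.36 through 8.49 to 9.48 in high-Hars strains, a difference of -0.56 (-0.97 to -0.15, adjusted p = 0.640).

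Lists further along the path to protein gave no calls. Among 13 tested genes of tRNA processing and export the median difference was -0.02, and Rpp21, a ribonuclease P subunit, had the smallest p at -0.43 (-0.93 to 0.08). Translation factors had a median of 0.02 over 32 genes, with Eif1ax at 0.22 (-0.0013 to 0.45) as the smallest p. Of the genes for histidine transport and breakdown only 2 were bright enough to be tested, and the amino acid transporter Slc38a5 differed by 0.05 (-0.12 to 0.22). No member of these 3 lists had an unadjusted p under 0.05.

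**Figure D4:**
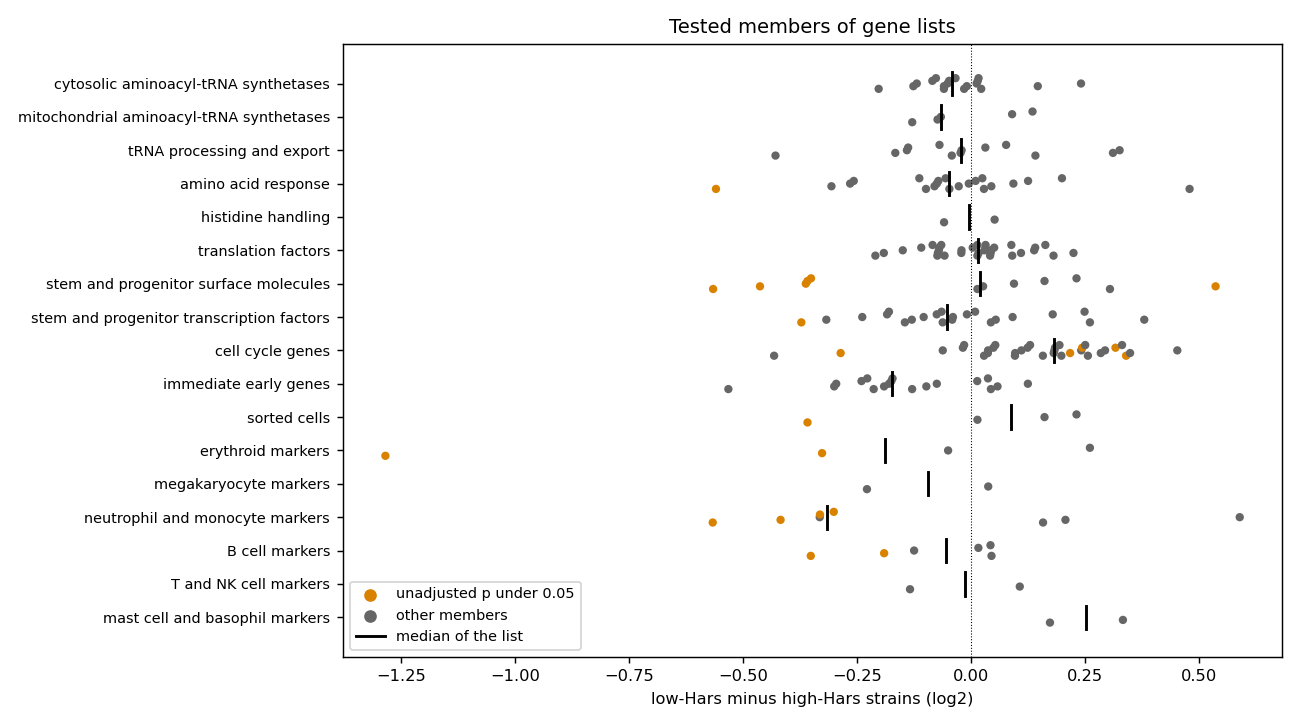
Difference between low-Hars and high-Hars strains (log2, low minus high) of every tested member of 17 gene lists, with the median of each list as a bar and members at an unadjusted p under 0.05 in orange. The synthetase lists hold no orange member, and the member farthest from 0 is the alpha globin gene Hba-a1 at -1.28.

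The sorted population was checked against its markers. Kit, the receptor stained as c-kit, had a median of 9.52 in low-Hars strains and 9.49 in high-Hars strains, with a difference of 0.01 (-0.24 to 0.27). Cd34 differed by 0.16 (-0.08 to 0.40) and the receptor tyrosine kinase gene Flt3, found on multipotent progenitors, by 0.23 (-0.06 to 0.52). Ly6a, which encodes Sca-1, had no probe set of that symbol alone. Procr, which encodes the endothelial protein C receptor found on long-term repopulating stem cells, was the fourth tested marker and the 1 with an unadjusted p under 0.05, at -0.36 (-0.69 to -0.03, adjusted p = 0.647). All 4 were bright enough to be tested, and the background at that threshold was 7.66% of all genes.

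Among 12 tested surface molecules of stem and progenitor cells, 0 passed limma's adjusted test and 6 had an unadjusted p under 0.05, with 1 higher and 5 lower in low-Hars strains, beside backgrounds of 4.23% and 3.43% of all genes. The median of the 12 was 0.02, and 7 of them were above 0. Itga6, the integrin alpha-6 chain, had the smallest p. It ran from 7.30 through 7.89 to 8.20 in low-Hars strains and from 7.98 through 8.15 to 8.51 in high-Hars strains, a difference of -0.35 (-0.57 to -0.13, adjusted p = 0.609). Procr, given above, is also a member of this list.

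Cd48, a molecule absent from the most primitive stem cells and present on many progenitors, was the member higher in low-Hars strains. It ran from 8.49 through 8.56 to 8.91 in low-Hars strains and from 6.95 through 8.18 to 9.15 in high-Hars strains, and the difference was 0.54 (0.10 to 0.98, adjusted p = 0.647). Low-Hars strains had an SD of 0.16 for Cd48, against 0.66 in high-Hars strains. The endoglin gene Eng differed by -0.57, the receptor gene Tie1 by -0.46 and the co-stimulatory receptor gene Cd27 by -0.36, each with an adjusted p of 0.640 or above. The Tie1 probe set carries the maker's mark for probes that may be shared by similar sequences. Of 22 tested transcription factors of these cells, 1 had an unadjusted p under 0.05, beside 7.66% of all genes. It was the GATA partner Zfpm1 at -0.37 (-0.73 to -0.02), and the median of the list was -0.05.

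Of 33 cell cycle genes, 28 were above 0 and 5 below, with a median difference of 0.18 beside 0.01 for all tested genes, and 0 passed limma's adjusted test. At an unadjusted p under 0.05 there were 5 of the 33, beside 7.66% of all genes. Of these, Mcm5, Plk1, Chek1 and Cdc25c were higher and Ccne1, which encodes cyclin E, was lower in low-Hars strains. Mcm5, a subunit of the replicative helicase, ran from 7.86 through 8.22 to 8.53 in low-Hars strains and from 7.39 through 7.81 to 8.43 in high-Hars strains. All 9 low-Hars strains lay above the high-Hars median, and the difference was 0.32 (0.05 to 0.58, adjusted p = 0.647). A dimmer Mcm5 probe set differed by -0.0047 (-0.30 to 0.29), and a dimmer one for the mitotic kinase gene Plk1 by -0.06 beside 0.24 for the brightest. That brightest Plk1 probe set carries the maker's mark for probes that may be shared by similar sequences. Immediate early genes, which sorting can induce, had a median of -0.17 over 18 genes with none at an unadjusted p under 0.05, and Klf4 had the smallest p at -0.53 (-1.10 to 0.04).

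Markers of other blood cells differed as well, without passing the test. Hba-a1, an adult alpha globin gene of red cells, ran from 7.44 through 8.78 to 9.75 in low-Hars strains and from 8.16 through 9.73 to 11.66 in high-Hars strains. The groups overlapped, with 8 of 9 low-Hars strains below the high-Hars median, and the difference was -1.28 (-2.11 to -0.46, unadjusted p = 0.00388, adjusted p = 0.609). A probe set of the adult beta globin gene Hbb-b2 differed by -0.94 (-1.47 to -0.40). Probe sets shared by several adult globin genes differed by -1.18 and -0.93, and the globins of the embryo Hbb-y, Hbb-bh1 and Hba-x by -0.40 (-0.72 to -0.09), -0.03 and -0.08. Copies of a globin gene are nearly identical, so these probe sets are not independent.

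Across the 4 tested erythroid markers, 2 had an unadjusted p under 0.05, both lower in low-Hars strains, beside 3.43% of all genes. The band 3 gene Slc4a1 differed by -0.33, the erythroid factor gene Klf1 by -0.05 and Gata1 by 0.26. The mean level of the list ran from 7.26 to 7.99 in low-Hars strains and from 7.59 to 8.46 in high-Hars strains. In sorted bulk samples, fewer cells of a type and less RNA per cell cannot be told apart. The part of these cells in any other difference was not tested.

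Granule and calcium-binding protein genes of mature neutrophils were lower in low-Hars strains at an unadjusted p under 0.05 in 4 of 8 tested neutrophil and monocyte markers, beside 3.43% of all genes, and 0 passed limma's adjusted test. S100a9 ran from 9.64 through 9.79 to 10.45 in low-Hars strains and from 9.84 through 10.50 to 11.05 in high-Hars strains, with all 9 low-Hars strains below the high-Hars median. Its difference was -0.57 (-0.86 to -0.27, unadjusted p = 0.000667, adjusted p = 0.609). S100a8 differed by -0.42, the lactoferrin gene Ltf by -0.30 and the neutrophil granule gene Ngp by -0.33.

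The granule enzyme genes of immature myeloid cells did not show the same sign. Mpo, myeloperoxidase, differed by 0.59 (-0.07 to 1.25), with -0.45 in series A and 1.24 in series B, and Elane, neutrophil elastase, by 0.21 (-0.10 to 0.51). Itgam and Ly6g, which encode the Mac-1 and Gr-1 antigens of the depletion panel, were too dim to be tested, with means of 4.38 and 5.74 in low-Hars strains and 4.49 and 5.79 in high-Hars strains. The mean level of the neutrophil and monocyte list ran from 9.07 to 9.53 in low-Hars strains and from 9.07 to 9.93 in high-Hars strains.

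For other lineages no marker passed either. Of 6 tested B cell markers, 2 had an unadjusted p under 0.05, both lower in low-Hars strains, beside 3.43% of all genes. They were Cd79a at -0.35 (-0.63 to -0.08) and Cd79b at -0.19 (-0.37 to -0.01), while the early B cell gene Vpreb1 differed by 0.05. The list mean ran from 7.26 to 7.49 in low-Hars strains and from 7.30 to 7.63 in high-Hars strains. For T cells, Cd3e and Cd8a were dim in both groups, and Cd4 differed by -0.13 (-0.41 to 0.15). The megakaryocyte gene Vwf differed by -0.23 (-1.19 to 0.73), with the platelet factor gene Pf4 dim at 4.71 in low-Hars strains and 4.62 in high-Hars strains. The mast cell protease gene Cpa3 differed by 0.33 (-0.09 to 0.75).

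**Figure D5:**
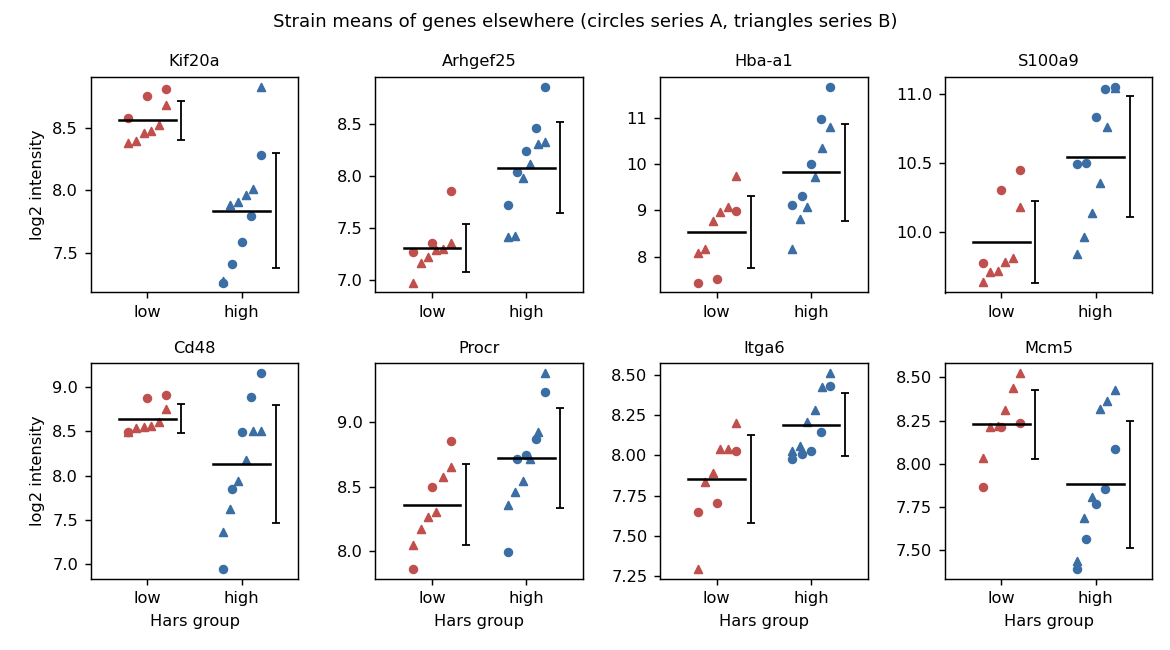
Strain means (log2 intensity after quantile normalization) of 8 genes away from the neighbours of Hars, with low-Hars strains left in red and high-Hars strains right in blue; circles are series A, triangles series B, lines are means and error bars SD, and the y axes differ between panels. Kif20a, Cd48 and Mcm5 were higher at the mean in low-Hars strains and the other 5 were lower, and the groups overlapped in every panel.

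RNA quality was read from the Gapdh control probe sets, as the log2 difference between the 3' and 5' ends of the transcript, where a larger value means less intact RNA. It was 2.69 ± 0.32 in low-Hars strains (SD, n = 9) and 3.01 ± 0.44 in high-Hars strains (SD, n = 11), a difference of -0.25 after series adjustment (two-sided exact permutation test within series, p = 0.0592). With this measure as a covariate, 5.64% of probe sets had an unadjusted p under 0.05 and 0 passed. Its part in the differences above was not otherwise tested.

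An interaction of Hars group and series was called for 0 probe sets by limma, with a smallest adjusted p of 0.408. Of 7452 probe sets, 198 had an unadjusted interaction p under 0.05. This is a smaller share than the threshold alone passes when no probe set has an interaction. Hba-a1 differed by -2.24 in series A and -0.69 in series B, and Kif20a by 1.05 in series A and 0.51 in series B. Neither gene was among the 198 probe sets. Chromosome 18 genes among the 198 included Cystm1, at -0.43 in series A and 0.62 in series B, and Dtna, at -0.03 and 0.55. Both were named after their values were seen.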

How the data were processed

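The deposited table of all arrays was used, with 12488 probe sets on 44 arrays, 1 intensity each on a linear scale. The authors had scaled each array, since the trimmed mean of the deposited intensity values was the same on every array; how the probes were summarised, and with which software, is not given in the sources used here. Scanner parameter files were set aside, as they hold no expression values.

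Intensities under 16 were set to 16, log2 was taken and quantile normalization followed. Control probe sets, 66 in number, were dropped, as were those with a mean below the 40th percentile (6.00). The 2 arrays of a strain were averaged, and 20 strain means were fitted in limma 3.58.1 (R 4.3.3) with Hars group and array series. Hars was left out of the test. P-values were adjusted by Benjamini-Hochberg over 7452 probe sets. Gene symbols were those of the platform table, updated through RefSeq (GRCm38.p6). The fitting code was tested on simulated data.

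Named were the 5 nearest tested genes on each side of Hars, and of each list the members that passed or the smallest p, with marker genes; any other gene was named after its values were seen. The groups, members and lists were chosen with earlier results of these data known. Alternatives covered the filter, floor, normalization, series, unit, moderation, threshold, RNA quality and each strain or array left out. No sequences are shown.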

Additional observations from a re-analysis of the deposited data

Results flagged for a closer look

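Among the 9 low-Hars strains, 37 genes were examined for a strain far from the others, by a gap test on the highest and the lowest strain mean with a critical ratio of 0.493, which chance alone passes for about 5% of genes. The high-Hars strains, being 11, were not examined. On the quantile-normalized log2 scale, Arap3 was 5.94 in BXD8, below the next strain at 6.68. Arhgef25 was 7.85 in BXD31, above the next at 7.35, and Tie1 was 8.07 in BXD38, below the next at 8.68.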

How the results depend on the processing

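The count of 0 probe sets past the adjusted threshold held in 74 of 76 alternatives. It was 1 with strain BXD18 left out (Kif20a, adjusted p = 0.0175) and 1 without BXD18 replicate 2 (Arhgef25, adjusted p = 0.0477), so it ran from 0 to 1 over the strains and arrays left out, as did the chromosome 18 count. The interaction count also ran from 0 to 1, being 1 without BXD33 replicate 1. Of the 10 genes nearest to Hars, 4 had an unadjusted p under 0.05; this was 1 when only series A strains were fitted, 2 when only series B strains were, and 2 to 4 with a strain or array left out, and the fewer strains of a single series set a smaller test. The unadjusted count over all probe sets was 298 in series A alone, 845 of 12421 without the brightness filter, and 422 to 822 in the fits that left out a strain or array. The smallest adjusted p was 0.0540 with single arrays and strain as a random block, 0.170 with a filter at the 60th percentile, 0.197 with BXD40 and BXD42 kept and 0.283 with Hars as a continuous covariate. Thresholds of 6.0 and 7.0 gave the same groups, so those fits repeated the main fit and could not differ from it. Of the 76 alternatives, 60 left out only 1 strain or array and shared most values with the main fit. The tallies over alternatives are therefore not independent checks. Ndufa2 kept its sign in 76 of 76 alternatives and an unadjusted p under 0.05 in 75, Cd14 in 68, Sra1 in 68 of 75 and Gnpda1 in 54. No paired analysis was possible because the labels carry no replicate numbers that the groups share and each strain lies in 1 group. Signal near the floor limits Hars in the low-Hars strains, where folds are lower bounds.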
